A study of Mus musculus with 2 samples.

Results

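A set of 10 genes that couple the muscle sarcomere to mechanical stress signals were followed in the hindlimb skeletal muscle of wild-type and Syn4 transgenic mice. They are the titin gene Ttn, the muscle ankyrin repeat genes Ankrd1, Ankrd2 and Ankrd23, the protease gene Capn3, the LIM protein genes Csrp3 and Fhl1, the Xin repeat genes Xirp1 and Xirp2, and the filamin gene Flnc. These 10 of 19938 genes were picked by name, with earlier results of the same arrays known, so their values below are a description. Each had 1 probe set, and 9 had a probe set of their own. The probe set that reads Capn3 is annotated to the neighbouring gene Ganc as well.

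The study hybridised RNA from male C57BL/6J mice on standard chow, with 1 whole-transcript array for wild-type animals and 1 for animals with a Syn4 transgene that overexpresses syntaxin 4, a membrane fusion protein of glucose transporter vesicles. No source used here gives the transgene's promoter, the age of the mice or the number of animals behind each array. With 1 array per genotype, no difference can be set against the spread between mice, so none was tested and values carry no error. Values are log2 intensities. A difference is the transgenic value less the wild-type value, on the log2 scale.

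The arrays carried the pattern their labels name. Stx4a, which encodes syntaxin 4, was at 8.84 in wild type and 12.20 in transgenic muscle, 10.3-fold higher. The defining skeletal muscle genes Acta1 (14.44 and 14.45) and Ckm (14.43 and 14.40) were bright in both arrays. Of the 9974 genes above the level filter of 6.79 in the brighter array, 265 (2.66%) were higher and 171 (1.71%) lower by at least 1.5-fold, which is 0.585 on the log2 scale.

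Titin is a giant elastic protein that spans the sarcomere from the Z-disc to the M-band and acts as a molecular spring. The muscle ankyrin repeat proteins bind its elastic I-band region and can move to the nucleus when muscle is stretched or injured. The LIM protein of Csrp3 and filamin C are found at the Z-disc, where thin filaments are anchored. The Xin proteins gather with filamin C where myofibrils attach to the membrane or are being repaired.

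Among the 9 genes with a probe set of their own, Ankrd1 and Xirp1 were higher and Csrp3 was lower in transgenic muscle by at least 1.5-fold. The other 6 lay within 1.5-fold. Over all genes that passed the filter, 2.66% were past that size upward and 1.71% downward, and nothing is read from the members' own counts, since they were listed with such values known. In all, 6 of the 9 were above 0 and 3 below, with a median difference of 0.20 against 0.03 over the 9974 genes. All 10 probe sets passed the level filter in both arrays.

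**Figure D1:**
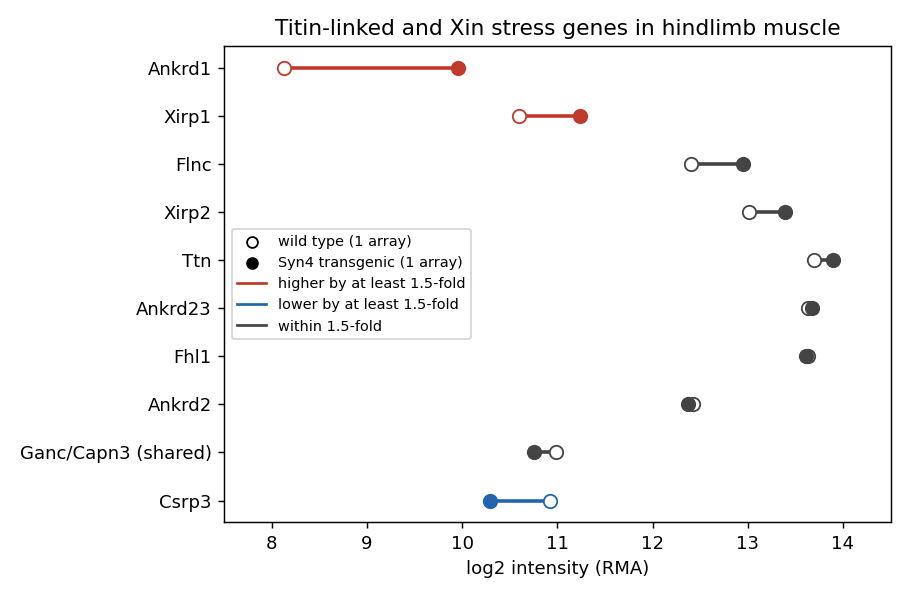
Log2 intensity (horizontal axis) of each probe set in the wild-type array (open circles) and the Syn4 transgenic array (filled circles), 1 array each, ordered by difference. Ankrd1 moved from 8.13 to 9.96 and Csrp3 from 10.92 to 10.29, while the circles of Fhl1, Ankrd2 and Ankrd23 nearly coincide.

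Titin itself differed little. Ttn was at 13.70 in wild type and 13.90 in transgenic muscle, a difference of 0.20 or 1.15-fold. Titin binds the calcium-dependent muscle protease calpain 3, the product of Capn3, which is mutated in a limb-girdle muscular dystrophy. The probe set shared by Ganc and Capn3 was at 10.98 in wild type and 10.75 in transgenic muscle, a difference of -0.23. The share of each gene in that signal was not separated.

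The ankyrin repeat genes did not move alike. Ankrd1 encodes cardiac ankyrin repeat protein, which is scarce in healthy limb muscle and known to be induced by stretch, denervation and injury. It was at 8.13 in wild type and 9.96 in transgenic muscle, a difference of 1.83 or 3.56-fold, the 19th highest of the 9974 genes. Ankrd2, whose product is a stretch-responsive protein enriched in slow fibres, was at 12.42 in wild type and 12.37 in transgenic muscle (-0.05). Ankrd23, first named as a diabetes-related ankyrin repeat gene, was at 13.63 in wild type and 13.68 in transgenic muscle (0.05). Of these 3 genes, Ankrd1 alone passed 1.5-fold.

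Across a wider list of 25 other ankyrin repeat genes, 11 were above 0 and 14 below, with a median of -0.03. Ankrd12, which encodes a nuclear cofactor, was highest at 0.60 (7.53 and 8.13), and it alone passed 1.5-fold. Asb14, which encodes a ubiquitin ligase adaptor with ankyrin repeats, was lowest at -0.35. By loess or quantile scaling none of the 25 passed 1.5-fold.

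Both Xin repeat genes were higher in the transgenic array. Xirp1, which encodes Xin, an actin-binding protein known to mark stressed and regenerating fibres, was at 10.60 in wild type and 11.24 in transgenic muscle, a difference of 0.64 or 1.56-fold. Xirp2, which encodes its larger relative, was at 13.01 and 13.39, a difference of 0.38 or 1.30-fold. Flnc encodes filamin C, the muscle actin crosslinker that binds Xin. It was at 12.40 in wild type and 12.95 in transgenic muscle, a difference of 0.55 or 1.46-fold. Xirp1 lay just past 1.5-fold and Flnc just short of it. These 3 genes had the same direction, with differences from 0.38 to 0.64.

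Other genes of the filamin, chaperone and Xin circle did not share a common size. Of 16 measured, 10 were above 0, 5 below and 1 at 0, with a median of 0.09. Hspb1, a small heat shock protein, was 1.75-fold higher (11.38 and 12.19). Ky, the kyphoscoliosis peptidase that binds filamin C, was 1.55-fold lower (10.78 and 10.15). No other member that passed the level filter reached 1.5-fold.

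The LIM genes also went separate ways. Csrp3 encodes muscle LIM protein, a Z-disc protein enriched in slow fibres and heart that binds telethonin and alpha-actinin. It was at 10.92 in wild type and 10.29 in transgenic muscle, a difference of -0.63 or 1.55-fold lower, just past 1.5-fold. Fhl1, a LIM-only protein mutated in several inherited myopathies, was at 13.63 in wild type and 13.61 in transgenic muscle (-0.02). Among 14 other LIM genes, 6 were above 0, 6 below and 2 at 0, with a median of 0.00. Csrp1, the relative of Csrp3 known from smooth muscle, was 1.69-fold higher (9.99 and 10.75). Fhl5 was 1.65-fold higher (7.32 and 8.04), and the actin-binding gene Ablim1 was 1.56-fold lower (9.79 and 9.15). Thus Csrp1 and Csrp3 lay on opposite sides of 0 by more than 1.5-fold each.

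**Figure D2:**
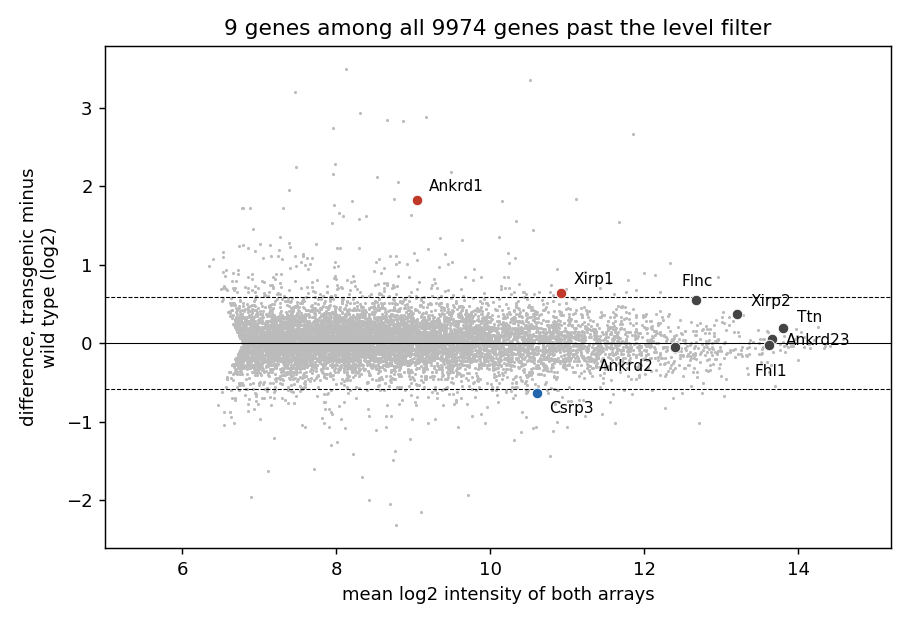
Difference between the arrays (log2, vertical axis) against the mean log2 intensity of both arrays (horizontal axis) for 9974 genes above the level filter (grey) and the 9 genes with a probe set of their own (named). Dashed lines mark 1.5-fold; Ankrd1 (1.83) lies far above the upper line, and Xirp1 (0.64) and Csrp3 (-0.63) just past the lines.

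Genes past 1.5-fold were found at every brightness. Among 393 genes with a level of 12 or more in the brighter array, 12 (3.05%) were higher and 10 (2.54%) lower by at least 1.5-fold. Flnc, Xirp2, Ttn, Ankrd2, Ankrd23 and Fhl1 fall in that range, and none of them passed 1.5-fold. Among the 1886 genes between 10 and 12, which include Xirp1 and Csrp3, 45 (2.39%) were higher and 49 (2.60%) lower. Ankrd1 belongs to the 7695 dimmer genes, of which 208 (2.70%) were higher and 112 (1.46%) lower by 1.5-fold. It was the only member past 2-fold, a size that 86 of all 9974 genes (0.862%) passed upward and 38 (0.381%) downward.

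The sequence upstream of 4 of the genes is shown because it places the letters of known muscle regulatory motifs beside the gene with the largest difference (Ankrd1), a pair of genes that hold the MEF2 motif (Ttn and Xirp2) and the gene that was lower (Csrp3). Each run is the 250 bases before the annotated start, from RefSeq, build GRCm38.p6, read 5′ to 3′ on the gene's strand. Capitals mark the M-CAT motif of TEAD factors (CATTCC or its complement GGAATG), the E-box of myogenic factors (CANNTG, its own complement) and the MEF2 motif.
Ankrd1 (chr19:36119845-36120094, minus strand): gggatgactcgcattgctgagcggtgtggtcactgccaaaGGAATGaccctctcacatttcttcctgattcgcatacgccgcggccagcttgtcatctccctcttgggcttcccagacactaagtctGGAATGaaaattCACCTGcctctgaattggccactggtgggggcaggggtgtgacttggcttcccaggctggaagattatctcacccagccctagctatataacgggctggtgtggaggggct
Ttn (chr2:76982548-76982797, minus strand): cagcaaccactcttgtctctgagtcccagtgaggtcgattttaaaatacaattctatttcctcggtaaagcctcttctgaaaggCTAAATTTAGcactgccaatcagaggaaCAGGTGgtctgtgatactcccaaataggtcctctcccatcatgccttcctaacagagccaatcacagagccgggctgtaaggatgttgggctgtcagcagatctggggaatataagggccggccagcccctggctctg
Xirp2 (chr2:67445752-67446001, plus strand): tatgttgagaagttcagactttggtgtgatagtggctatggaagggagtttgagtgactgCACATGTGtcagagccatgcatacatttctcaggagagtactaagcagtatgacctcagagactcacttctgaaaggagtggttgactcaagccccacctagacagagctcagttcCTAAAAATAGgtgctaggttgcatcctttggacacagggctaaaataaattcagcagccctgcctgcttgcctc
Csrp3 (chr7:48848052-48848301, minus strand): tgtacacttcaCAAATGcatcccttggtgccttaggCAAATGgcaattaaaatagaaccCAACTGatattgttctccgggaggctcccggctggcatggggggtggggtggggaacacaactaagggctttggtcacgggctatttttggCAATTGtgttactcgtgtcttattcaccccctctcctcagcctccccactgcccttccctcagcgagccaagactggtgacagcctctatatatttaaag

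The motifs were counted on both strands in windows of 300 bases, from 250 before to 50 after each annotated start. The table held 14 such windows for 9 of the 10 genes, all but Xirp1, among 32851 windows in all. No match of one of these motifs overlapped a match of a different one. In the Xirp2 run, the E-box matches at positions -190 and -188 overlap each other and form 1 stretch of capitals. The Ankrd1 window held 2 M-CAT matches, at positions -210 and -123 from the start, and 1.36% of all windows held 2 or more. At least 1 M-CAT match lay in 6 of the 14 windows, those of Ankrd1, Ankrd23, Flnc and Ttn, and in 14.7% of all windows. The 2 Flnc windows overlap and hold the same match, so 1 site is counted in 2 windows, and the windows are not independent. The Ttn match, at position 12 after the start, lies outside the run shown. The genes with an M-CAT match differed by 1.83 (Ankrd1), 0.55 (Flnc), 0.20 (Ttn) and 0.05 (Ankrd23). Those with windows but no such match differed by 0.38 (Xirp2), -0.02 (Fhl1), -0.05 (Ankrd2) and -0.63 (Csrp3). Capn3 had no match either, and the probe set it shares with Ganc differed by -0.23. A link between the motif and these differences was not tested.

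The MEF2 motif lay in windows of Ttn, Xirp2 and Capn3, and in 0.557% of all windows. Csrp3 had 2 windows of 300 bases, at different annotated starts. The window of the run shown held 5 E-box matches, of which that at position 21 after the start lies outside the run. The other window held 4, and 2.10% of all windows held 5 or more. E-boxes are common, and 72.3% of all windows held at least 1. The only match to the CArG box of serum response factor lay before Fhl1, and 1.63% of all windows held one. These are matches of letters, and no binding was measured.

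The nearest 5 measured genes on each side of Ankrd1 on chromosome 19 differed by -0.69 to 0.15. Those around Xirp1 on chromosome 9 ran from -0.41 to 0.22, and those around Csrp3 on chromosome 7 from -0.45 to 0.52. Only 6 of the 10 neighbours of Ankrd1 passed the level filter (-0.69 to 0.15), 5 of those of Xirp1 (-0.24 to 0.20) and 3 of those of Csrp3 (0.05 to 0.52), and the dim ones say little about a shared difference. Around Flnc on chromosome 6 the range was -0.30 to 0.84, where the highest was Ccdc136, the gene next to it. On chromosome 2, the neighbours of Ttn ran from -0.49 to 0.61 and those of Xirp2 from -0.58 to 0.96. The level filter was passed by 6 neighbours of Flnc (-0.30 to 0.84), 4 of Ttn (-0.01 to 0.61) and 4 of Xirp2 (-0.58 to 0.96).

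**Figure D3:**
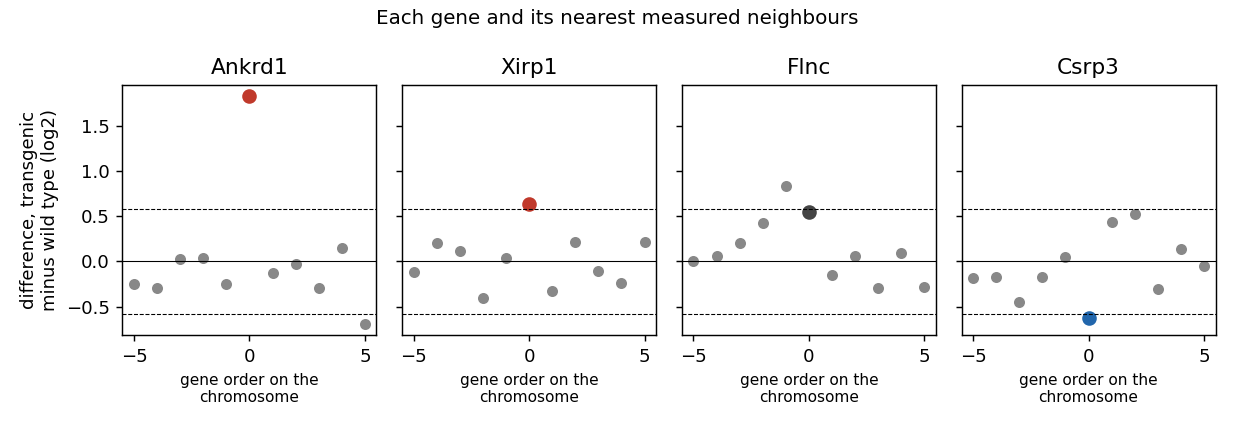
Difference between the arrays (log2, vertical axis) for Ankrd1, Xirp1, Flnc and Csrp3 (large point at 0) and the nearest 5 measured genes on each side (grey), by gene order along the chromosome. Dashed lines mark 1.5-fold; the neighbours of Ankrd1 lie between -0.69 and 0.15, and 1 neighbour of Flnc is at 0.84.

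Other genes of the Z-disc, the thin filament and their partners were mostly near equal. Of 27 measured in that list, 15 were above 0 and 12 below, with a median of 0.04. Tcap, the titin cap protein telethonin, was at 12.24 in wild type and 12.32 in transgenic muscle. Pdlim1, an alpha-actinin-binding PDZ and LIM protein, was lowest and 1.54-fold lower (10.79 and 10.17). Its relative Pdlim3 was highest at 0.40 (12.82 and 13.22), within 1.5-fold.

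Toward the M-band, titin carries a kinase domain. A list of M-band and titin kinase partners also took in thick filament genes and Smyd2, which is linked to the I-band. Of its 16 measured genes, 10 were above 0, 5 below and 1 at 0, with a median of 0.10. Mybph, a myosin-binding protein of the thick filament, was 2.11-fold higher (8.02 and 9.10). Smyd2, a lysine methyltransferase known to associate with Hsp90 at titin's I-band, was 1.65-fold lower (11.52 and 10.80). In the calpain system apart from Capn3, 8 of 9 genes were above 0 and none passed 1.5-fold. Their median was 0.19, from Capn6 at -0.08 to Capn2 at 0.38.

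Genes of the YAP, TEAD and serum response factor programmes, which are known to control Ankrd1 and other stretch-responsive genes, were mixed. Of 25 measured, 16 were above 0, 8 below and 1 at 0, with a median of 0.12. Ccn1, a secreted matrix protein and YAP target, was 2.22-fold higher (9.65 and 10.80). Egr1, an immediate early transcription factor, was 2.31-fold higher (7.44 and 8.65). Actc1, the cardiac actin that limb muscle makes early in development, was 2.17-fold lower (11.38 and 10.26). The factors and cofactors themselves lay within 1.5-fold as deposited, from the TEAD cofactor gene Vgll2 at -0.58 and the SRF cofactor gene Mrtfa at -0.49 to Tead1 at 0.41, with Yap1 at -0.05 and Srf at -0.19. Vgll2 was past 1.5-fold under loess (-0.61) or quantile (-0.62) scaling. These 5 were chosen for naming after their values were seen.

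**Figure D4:**
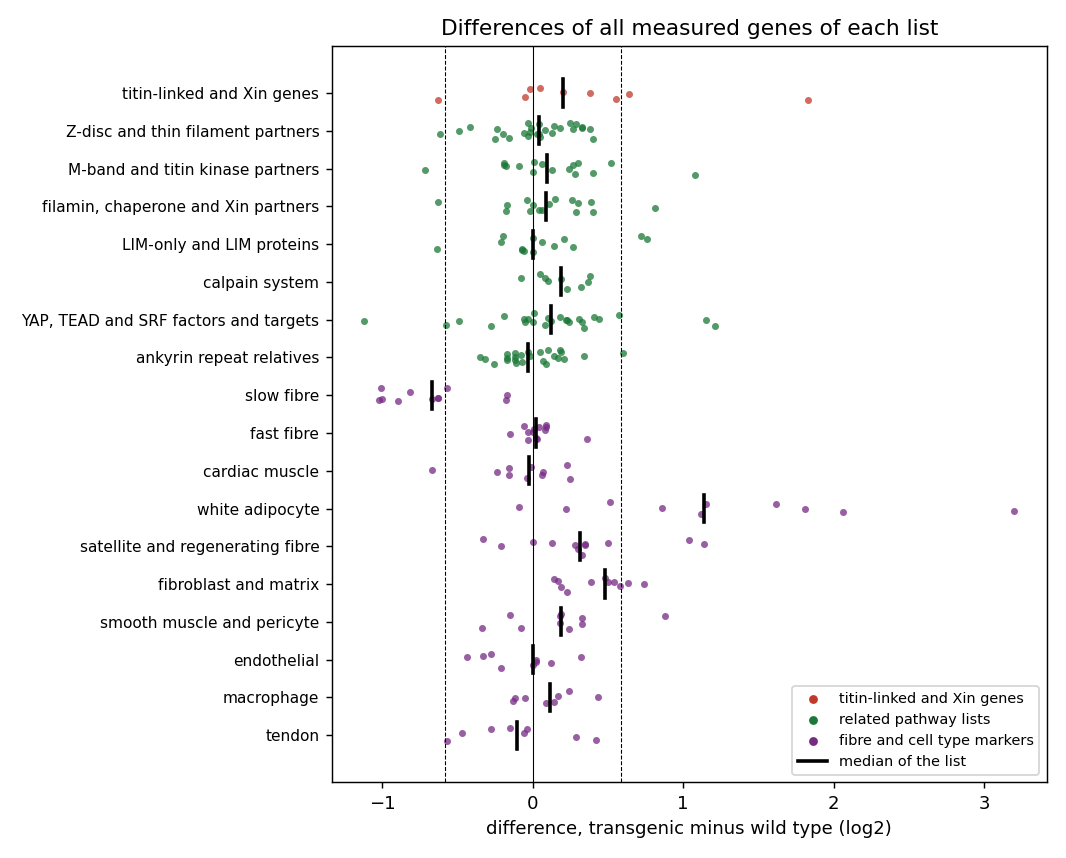
Difference between the arrays (log2, horizontal axis) of every measured gene in each list (1 point per gene, black bar at the median), for the 9 genes with a probe set of their own (red), related pathway lists (green) and fibre and cell type markers (purple). Dashed lines mark 1.5-fold; the slow fibre median is -0.67 and the white adipocyte median 1.14, while the median of the 9 genes is 0.20.

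Markers of fibre type and of other cells differed between the same arrays. All 11 slow fibre markers were below 0, 8 of them by at least 1.5-fold, from -1.02 (Myl3) to -0.17 (Myh7b). The others past 1.5-fold were the slow troponin genes Tnnc1 (-1.01), Tnnt1 (-0.90) and Tnni1 (levels of 11.37 in wild type and 10.37 in transgenic muscle), the slow myosin genes Myh7 (-0.82) and Myl2 (-0.63), the calcium pump gene Atp2a2 (-0.67) and the tropomyosin gene Tpm3 (-0.63). The log2 of their summed intensity was 15.74 in wild type and 14.96 in transgenic muscle. Csrp3, enriched in slow fibres, was lower in the same array, whereas Ankrd2, enriched there too, was near equal. The 13 fast fibre markers had a median of 0.02 and a summed level of 17.59 and 17.62. In bulk tissue, fewer cells of a type and less RNA per cell cannot be told apart.

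Marker lists of other cell types differed in how many genes passed 1.5-fold. Of 10 white adipocyte markers, 9 were above 0, with a summed level of 12.60 in wild type and 13.16 in transgenic muscle. The wild-type sum rests largely on Fabp4 (11.20 and 11.42) and Pnpla2 (11.21 and 11.12), both within 1.5-fold. The 7 higher by at least 1.5-fold were Lep (3.20), Adipoq (2.06), Cidec (1.81), Plin1 (1.62), Retn (1.15), Pck1 (1.12) and Slc7a10 (0.86). Of these, Lep, Pck1 and Slc7a10 passed the level filter through the transgenic array alone, and 4 remained where both arrays had to pass. All 11 fibroblast and matrix markers were above 0, 2 of them by at least 1.5-fold (Lum at 0.74 and Lox at 0.63), with a summed level of 13.97 and 14.23. Dcn (13.15 and 13.29), the lowest difference at 0.14, makes up much of that sum. Of 12 markers of satellite cells and of fibres that regenerate or lost their nerve, 9 were above 0, 2 below and 1 at 0. Their summed level was 12.16 and 12.59, and Ncam1 (1.14) and Runx1 (1.04) passed 1.5-fold. Pax7 was lowest at -0.33, while Chrng (-0.21) and Myog (0.00) were under the level filter. Of 10 smooth muscle and pericyte markers, 7 were above 0 and 3 below (14.43 and 14.59). That sum rests largely on Des (13.88 and 14.06), which is also counted among the Z-disc genes. The 3 below were Rgs5 (-0.08), Notch3 (-0.15) and Kcnj8 (-0.34). Cnn1 passed 1.5-fold at 0.88. Its wild-type level of 6.47 was under the filter, so that 0 were left where both arrays had to pass. Of 10 cardiac markers, 4 were above 0 and 6 below (10.91 and 10.79), 3 passed the level filter, and Myh6 passed 1.5-fold downward (8.09 and 7.42). Myh6 is so similar in sequence to the slow myosin gene Myh7 that its value is uncertain. Apart from the cardiac marker Ryr2, no marker in these lists was under 5.47 in its brighter array, the 95th percentile of 1027 olfactory receptor genes. The part of these markers in the differences of Ankrd1, Xirp1, Flnc and Csrp3 was not tested.

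The genes with levels most like Ankrd1 over the 2 arrays, by Euclidean distance of the log2 values, were Eda2r, a receptor of the tumour necrosis factor family (8.16 and 9.79, distance 0.17), the adipocyte hormone gene Adipoq (7.77 and 9.83), Zc2hc1a (7.83 and 9.67), the adipocyte hormone gene Retn (8.43 and 9.58) and Cpne2 (8.59 and 9.79). Those most like Csrp3 were the mitochondrial ribosomal gene Mrpl34 (10.89 and 10.35, distance 0.07), Cldnd1, Mavs, Fxyd6 and Decr1, whose differences ran from -0.60 to -0.46. A likeness over 2 arrays is a weak description.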

How the data were processed

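The table the authors deposited holds a log2 intensity for each of 35556 probe sets per array, rounded to 2 decimals. RMA and Partek are named in the submitters' processing notes; no source used here gives versions or settings. Both arrays had a median of 6.06. Probe sets were named by the platform annotation of GEO, which can be out of date: 21789 probe sets carry 1 symbol, 1621 several and 12146 none. Of the first, 21698 were found by Entrez identifier in a RefSeq table (GRCm38.p6), and no symbol changed. For a gene with several probe sets, the brightest by mean was used. Genes counted had a brighter value at or above the median of that value over all genes, and 1.5-fold was the rule of size. The arrays' number limits the precision.

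The members and lists were chosen with earlier results of these data known. The text names the 10 genes, Stx4a, each list's 1.5-fold genes and usually its extremes, and the 5 genes nearest Ankrd1 and Csrp3. Other names (Acta1, Ckm, Tcap, the YAP, TEAD and SRF factors, Ccdc136, Fabp4, Chrng, Myog, Des, Rgs5, Notch3) were chosen after seeing values. Alternatives covered the level filter, the fold, scaling (median, loess with span 0.3 and 3 iterations, quantile) and probe set averaging. Counting, scaling and motif steps were tested on simulated data. Python 3.11.15, pandas 2.3.3 and statsmodels 0.14.6 were used.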

Additional observations from a re-analysis of the deposited data

How the results depend on the processing

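The differences of Ankrd1 (1.79 to 1.83), Xirp1 (0.61 to 0.64) and Csrp3 (-0.65 to -0.63) kept their direction and stayed past 1.5-fold under median centring, loess removal and quantile normalization, and Flnc stayed within it (0.55 to 0.56). Those scalings moved the median of all genes by at most 0.03 in size (-0.03 with quantile normalization). Median centring could change no difference, since both arrays already had a median of 6.06. Filtering at the 95th percentile of olfactory receptor genes, on both arrays or not at all, and averaging probe sets, left the member counts at 2 higher and 1 lower. That outcome was fixed in advance, since each member passed the level filter in both arrays and had 1 probe set. With a 2-fold rule, 1 member was higher and 0 lower, and 86 and 38 of all genes were higher and lower, as the stricter limit fixes. The mean of the members was 0.33 in place of the median of 0.20, since Ankrd1 alone lies at 1.83. With the probe set shared by Capn3 and Ganc the median was 0.13. Among list counts, the adipocyte markers higher by 1.5-fold fell from 7 to 4 when both arrays had to pass the filter, and the smooth muscle count from 1 to 0. The fibroblast count was 1 in place of 2 under quantile scaling. Vgll2, at -0.58, lay just short of 1.5-fold as deposited, and under loess or quantile scaling the lower count of its YAP, TEAD and SRF list was 2 in place of 1. No paired analysis was possible because each genotype has 1 array. Leaving out an array would leave no comparison.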

Other observations

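Marker lists of other cells in the muscle differed little. The 9 endothelial markers had a median difference of 0.00, from Kdr at -0.44 to Vwf at 0.32. The 8 macrophage markers had a median of 0.12, from Fcer1g at -0.13 to Cd74 at 0.43, and the 8 tendon markers a median of -0.11, from Chad at -0.57 to Kera at 0.42. None of the markers in these 3 lists that passed the level filter reached 1.5-fold in the values as deposited. With loess or quantile scaling, 1 tendon marker passed it downward.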
